A study of Mus musculus with 12 samples.

Results

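RAW 264.7 cells that had received pre-miR-223, a synthetic mimic of the microRNA miR-223, were compared with cells that had received an irrelevant scramble oligonucleotide. RAW 264.7 is a mouse macrophage-like line that grows attached to the dish and was immortalised with the Abelson leukaemia virus. Both groups were taken 48 h after transfection of confluent cultures. The comparison used 8 of the 12 arrays of the study, chosen by their titles: 4 with pre-miR-223 and 4 with scramble, each titled as biological replicates 1 to 4. The remaining arrays, from cells given an inhibitor of miR-223, were used only in 1 alternative estimate of the spread. All 8 arrays came from 1 cell line, and the labels give neither the dose of either oligonucleotide nor the day of each transfection. Total RNA was hybridised to Affymetrix whole-transcript arrays, whose deposited values are log2 signals. A gene was represented by its brightest row (transcript cluster), and the 6945 of 22180 gene symbols with a mean signal above log2 4 over the 8 arrays were tested. Differences below are pre-miR-223 minus scramble on the log2 scale, so that a value below 0 means lower signal with pre-miR-223.

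MicroRNAs are cut from hairpin precursors, and 1 strand is loaded into an Argonaute protein. The loaded strand pairs, mainly through its seed at bases 2 to 8, with the untranslated tails of messenger RNAs, which are then less stable and less translated. miR-223 is encoded on the X chromosome, is abundant in myeloid cells, and is known for restraining neutrophil production and inflammation; its reported targets include the transcription factor Mef2c, the inflammasome sensor Nlrp3 and enzymes of cholesterol synthesis. The RefSeq sequences of the miRNA, in the GRCm38.p6 build, are shown because the mimic is meant to supply this strand. The seed is in capitals in the mature sequences, and the mature strands are in capitals in the hairpin.

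mmu-miR-223-3p: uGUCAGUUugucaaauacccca
mmu-miR-223-5p: cGUGUAUUugacaagcugaguug
Mir223 hairpin: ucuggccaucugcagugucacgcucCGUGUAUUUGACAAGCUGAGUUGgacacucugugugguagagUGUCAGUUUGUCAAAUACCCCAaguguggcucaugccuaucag

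The hairpin lies on the plus strand at chrX:96242817-96242926, with the 5p strand at chrX:96242842-96242864 and the 3p strand, the main product, at chrX:96242884-96242905. Among 1738 mature mouse miRNAs of the same table, none other carried either seed. The exact sequence of the transfected mimic is not given in the sources used here. No row of the arrays had Mir223 as its only symbol, so delivery of the mimic was not checked.

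No gene differed between pre-miR-223 and scramble at an adjusted p under 0.05 in limma's moderated test over the 6945 genes, where the lowest adjusted p was 0.381. The unadjusted p was under 0.05 for 888 genes (12.8%), against 347 given by chance. Of these, 825 (11.9% of all tested genes) were lower with pre-miR-223 and 63 (0.907%) were higher. The groups did not overlap for 178 genes (2.56%) that were lower and for 26 (0.374%) that were higher. The 95% confidence interval reached a median of 0.25 to either side of a difference. Differences as large as 2-fold, up or down, lay outside it for 99.0% of the genes, and differences as large as 1.5-fold for 87.5%. If the arrays of a group did not come from separate cultures, the p-values cover only the spread between these arrays.

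Small differences towards lower signal ran through most of the tested genes. The difference was below 0 for 5480 genes (78.9%), with a median of -0.11, whereas the 15235 symbols at or below log2 4 had a median of 0.01 and were lower in 47.4% of cases. The median was similar in every band of signal, from -0.12 for genes above log2 8 to -0.10 for those between log2 7 and log2 8. The share of genes lower at an unadjusted p under 0.05 was less even. It was 20.04% above log2 8 and 10.4% to 11.8% in the other bands. Relative to each gene's mean over the 8 arrays, the median over tested genes was 0.02, 0.16, 0.01 and 0.02 in scramble replicates 1 to 4. With pre-miR-223 it was -0.06, 0.10, -0.10 and -0.14 in replicates 1 to 4. Replicate 2 of pre-miR-223 thus lay above 3 of the 4 scramble arrays, and the groups overlapped. The difference in this median was -0.10, with a 2-sided exact permutation p of 0.143 over 70 splits of 4 against 4 arrays, whose smallest possible p is 0.0286. The first principal component, which held 56.5% of the variance, placed scramble at -11.1, -20.1, 0.64 and -2.21 in replicates 1 to 4. It placed pre-miR-223 at 10.3, -9.58, 12.8 and 19.3, again with replicate 2 on the scramble side (exact permutation p = 0.0857). Over all rows of the table, by contrast, scramble replicate 2 and pre-miR-223 replicate 2 had the lowest medians among the 8 arrays, both 2.23, against 2.25 to 2.31 in the others.

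With every array centred on its median over the tested genes, the 825 lower and 63 higher genes became 385 lower and 308 higher, again with none called. Without pre-miR-223 replicate 2, 459 genes (6.61%) were called lower and 31 (0.446%) higher, with a lowest adjusted p of 0.0147. With that array left out and the rest centred, 0 genes were called, the lowest adjusted p was 0.0524, and 645 lower and 586 higher genes had an unadjusted p under 0.05. Without both pre-miR-223 replicate 2 and scramble replicate 2, 33 genes were called lower and 3 higher. These last 2 fits were added after the data were seen. Gene groups are therefore given as deposited, after centring and with single arrays left out, as counts of members lower at an unadjusted p under 0.05. Over all tested genes that share was 11.9% as deposited and 5.54% after centring. It was 7.39%, 5.28%, 13.2% and 10.6% without scramble replicates 1 to 4. Without pre-miR-223 replicates 1 to 4 it was 6.94%, 28.2%, 5.99% and 4.85%. Gene groups were not compared with genes of like signal, although this share was higher, as deposited, among genes above log2 8.

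The macrophage identity of the cells was checked with 10 markers, of which 8 lay above log2 4. Lyz2, the lysozyme gene, had a mean signal of 11.17 over the 8 arrays, Cd68 of 9.78, Cd14 of 9.52 and the CSF-1 receptor gene Csf1r of 9.14, while Mertk, at 2.46, and Aif1, at 3.85, lay below that level. The 8 had a median difference of -0.24 between the groups, and the mean of the 10 markers ranged from 7.47 to 7.70 over scramble arrays and from 7.30 to 7.63 over pre-miR-223 arrays. Of the 39 markers of neutrophils, dendritic cells, lymphoid cells, fibroblasts, epithelium and endothelium with a row of their own, none lay above it. In these bulk samples, fewer transcripts per cell and fewer cells with a transcript cannot be told apart.

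Among the named genes the smallest p for lower signal was that of Gpx1, which encodes the hydrogen peroxide reducing enzyme glutathione peroxidase 1. Its signal was 9.12, 9.02, 8.81 and 8.85 in scramble replicates 1 to 4 and 8.18, 8.75, 8.27 and 8.11 with pre-miR-223. The groups did not overlap, and the difference was -0.62 (95% CI -0.92 to -0.32), from 8.95 ± 0.15 to 8.33 ± 0.29 (SD, n = 4). Dpm2, a subunit of the enzyme that makes dolichol-phosphate mannose for glycosylation, had 5.21, 5.08, 5.03 and 5.11 with scramble and 4.63, 4.76, 4.81 and 4.57 with pre-miR-223. Its groups did not overlap either, and the difference was -0.41 (95% CI -0.62 to -0.21). Pisd, the mitochondrial phosphatidylserine decarboxylase, had 4.57, 4.73, 4.59 and 4.21 with scramble against 4.21, 4.02, 3.65 and 3.54 with pre-miR-223. Here the lowest scramble array and the highest pre-miR-223 array came close to each other without crossing. The difference was -0.67 (95% CI -1.01 to -0.33). Its mean with pre-miR-223, 3.85, lay below log2 4, and so did those of Tor2a, Cmpk2, H4c14 and Plk3, which likewise were tested only because of their scramble arrays. None of these genes passed the test (adjusted p = 0.381 for each in limma).

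The other 9 genes among the 12 with the smallest p for lower signal differed by -0.65 to -0.39. They were Lmf2, a lipase maturation factor, Tor2a, a torsin ATPase, Mgmt, which removes alkyl groups from DNA, Mrpl54 of the mitochondrial ribosome, and Ift22 of intraflagellar transport. The rest were B3gat3, a glucuronyltransferase of proteoglycan synthesis, Ints1 of the Integrator complex, Ndufa11 of respiratory complex I and Trappc2l of the TRAPP trafficking complexes. B3gat3 and Ndufa11 overlapped between the groups in 1 array, pre-miR-223 replicate 2, while the other 7 did not overlap. Mrpl54 had tight scramble values, 7.71, 7.71, 7.79 and 7.80, against 7.24, 7.60, 7.03 and 7.24 with pre-miR-223. Without pre-miR-223 replicate 2 all 12 passed the test, with differences from -0.82 for Ndufa11 to -0.43 for Dpm2. After centring of all 8 arrays Gpx1 differed by -0.51 (95% CI -0.74 to -0.28), with an adjusted p of 0.486.

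**Figure D1:**
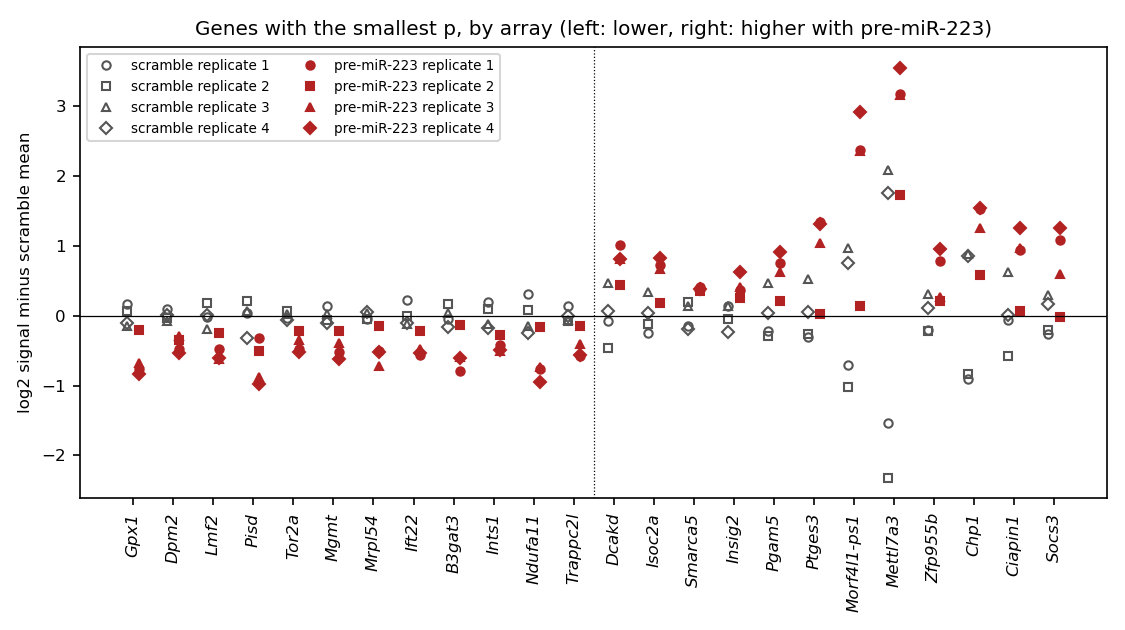
Log2 signal of each array minus the scramble mean of the gene (vertical axis) for the 12 genes with the smallest p for lower signal, left of the dotted line, and the 12 for higher signal, right of it. Open symbols are scramble arrays and filled symbols pre-miR-223 arrays, 1 shape per replicate number. The filled squares of pre-miR-223 replicate 2 lie nearer to scramble than the rest of their group in most genes, and the higher genes spread more within each group.

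Genes with higher signal were fewer and spread more. Smarca5, the ATPase of ISWI chromatin remodelling complexes, had 4.72, 5.07, 5.01 and 4.67 with scramble and 5.28, 5.22, 5.28 and 5.25 with pre-miR-223. The groups did not overlap, and the difference was 0.39 (95% CI 0.15 to 0.63). Insig2, an endoplasmic reticulum protein that retains the sterol sensor complex, had 3.98, 3.79, 3.98 and 3.61 with scramble and 4.21, 4.09, 4.25 and 4.46 with pre-miR-223, again without overlap. Its difference was 0.41 (95% CI 0.16 to 0.66). Its scramble mean, 3.84, lay below log2 4, so it was tested only because its signal was higher with pre-miR-223, and its place among the higher genes depends on that. The groups overlapped in the other 10 of the 12 genes with the smallest p for higher signal. Ptges3, the Hsp90 cochaperone p23, had 4.86, 4.90, 5.70 and 5.22 with scramble and 6.51, 5.19, 6.21 and 6.48 with pre-miR-223. In this gene replicate 2 of pre-miR-223 fell among the scramble arrays, and the difference was 0.93 (95% CI 0.35 to 1.51).

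Socs3, an inhibitor of JAK-STAT signalling that cytokines induce, had 3.80, 3.87, 4.36 and 4.24 with scramble and 5.14, 4.04, 4.66 and 5.32 with pre-miR-223. The difference was 0.73 (95% CI 0.21 to 1.24), and a further row of Socs3, at a mean of 3.67 and so below the level tested, differed by -0.04. Dcakd, a dephospho-CoA kinase domain gene, differed by 0.77 (95% CI 0.38 to 1.15) in its brightest row and by -0.13 in its other row. Ciapin1, a factor of iron-sulfur cluster assembly, differed by 0.81 in its brightest row and by -0.38 in its other row. Pgam5, a mitochondrial phosphatase, differed by 0.62 and 0.15 in its rows. Without pre-miR-223 replicate 2, the 12 higher genes other than Smarca5 and Chp1 passed the test, with differences from 0.46 for Insig2 to 3.29 for Mettl7a3. The choice of row set the sign for Socs3, Dcakd and Ciapin1. Across all tested genes, 309 further rows above log2 4, of 236 genes, had the sign of the brightest row in 123 cases. For the 63 higher genes this held for 4 of 21 further rows, and for the 825 lower genes for 18 of 31.

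Only higher genes reached a difference of 2-fold: 18 were higher by at least that much and 0 were lower. The largest was 3.18, in a row of the olfactory receptor gene Olfr1454, and the lowest difference of any tested gene was -0.86. Olfr1454 had 5.83, 3.88, 9.96 and 9.91 with scramble and 10.92, 9.66, 10.62 and 11.08 with pre-miR-223. Scramble replicates 1 and 2 were low, and scramble replicates 3 and 4 were higher than pre-miR-223 replicate 2. Tuba1c, an alpha-tubulin gene, had 6.32, 5.67, 8.43 and 8.36 with scramble and 10.05, 7.13, 9.82 and 10.21 with pre-miR-223. Its difference was 2.11 (95% CI 0.56 to 3.66), against 0.14 in a further row of Tuba1c. Rps18, of the small ribosomal subunit, had 7.20, 7.21, 9.43 and 9.22 with scramble and 10.44, 8.21, 10.11 and 10.41 with pre-miR-223.

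In all 18 genes the same arrays were low. Scramble replicates 1 and 2 were the lowest of the 8 arrays in 18 of 18, against 188 of all 6945 tested genes (2.71%), and pre-miR-223 replicate 2 was the lowest of its group in 18 of 18, against 395 (5.69%). The groups overlapped in all 18. Among the 63 higher genes these counts were 43 and 53. The 825 lower genes tended to the mirror image: scramble replicates 1 and 2 were the highest arrays in 386 of them (46.8%), against 16.4% of all tested genes. Pre-miR-223 replicate 2 was the highest of its group in 745 (90.3%), against 67.7% of all tested genes. These sets were chosen by the difference between the groups, which by itself favours scramble arrays as the lowest in higher genes and the highest in lower genes. The shares over all tested genes therefore describe the pattern and are no test of it. The SD within a group had a median of 1.01 for scramble and 0.84 for pre-miR-223 over the 18 genes, against 0.14 and 0.16 over all tested genes. The 18 also included Mettl7a3, Morf4l1-ps1, Vmp1, Mir5112, Tuba1b, Nme1, Chp1, Sec61b, Chd3, Gpn3, Ehd1, Mef2c and 1810037I17Rik. Further rows above log2 4 differed by -0.37 for Ehd1, -0.08 for Chd3 and -0.10 for Mef2c. They differed by -0.32 and -0.15 for 1810037I17Rik and by 0.14 for Tuba1c. Gpn3 had means of 3.79 with scramble and 4.84 with pre-miR-223, so it was tested, and counted here, only because of its pre-miR-223 arrays. Tuba1b, Tuba1c, Morf4l1-ps1, Mettl7a3 and Rps18 have close sequence relatives or pseudogene copies, so their rows may take signal from several genes.

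**Figure D2:**
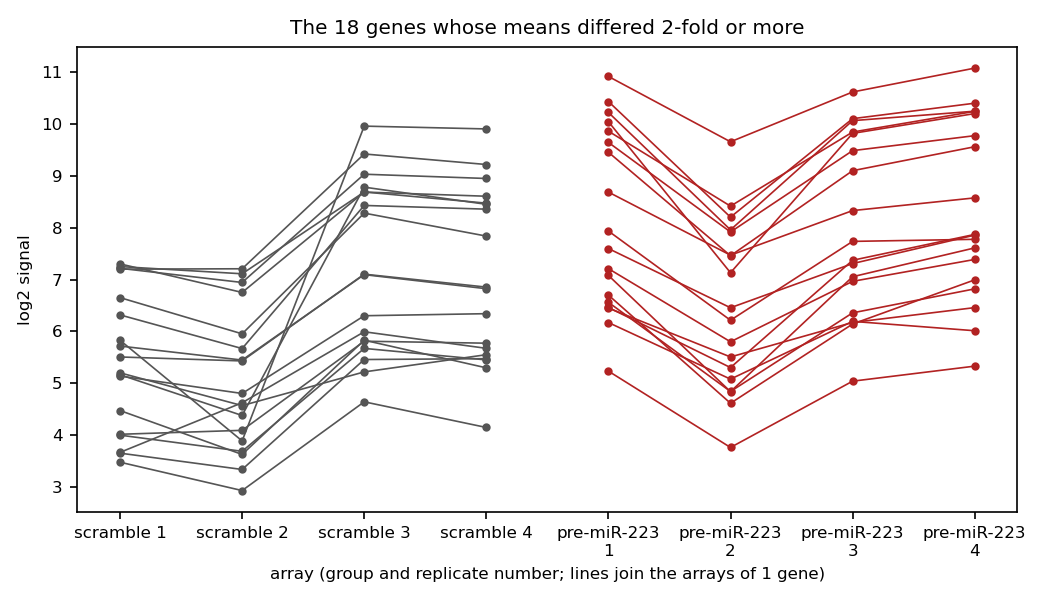
Log2 signal (vertical axis) in each of the 8 arrays for the 18 genes whose group means differed 2-fold or more, scramble in grey and pre-miR-223 in red. A line joins the arrays of 1 gene within a group and stands for no order in time. Scramble replicates 1 and 2 are the lowest arrays in every gene, and pre-miR-223 replicate 2 is the lowest of its group.

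Reported miR-223 targets were followed as a list of 58 genes, of which 38 were tested, 17 lay at or below log2 4 and 3 had no row with 1 symbol. None was called. At an unadjusted p under 0.05, 4 (10.5%) were lower, close to the 11.9% of all tested genes, and 1 was higher. The median difference was -0.08, against -0.11 over all tested genes, and 29 of 38 were below 0, against 78.9% of all tested genes. After centring the median was 0.03, 15 were below 0, and 2 were lower and 2 higher at an unadjusted p under 0.05. A 2-fold fall lay outside the interval for 38 of 38, and a 1.5-fold fall for 31. In the fit without pre-miR-223 replicate 2, 2 of the 38 (5.26%) were called lower, against 6.61% of all tested genes. The 4 lower targets became 0 without scramble replicate 2, and omitting pre-miR-223 replicate 2 gave 11, where 28.2% of all tested genes were lower.

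The lowest targets were sterol enzymes. Sc5d, the sterol C5-desaturase, had 5.74, 6.31, 5.83 and 5.88 with scramble and 5.60, 5.86, 5.37 and 5.33 with pre-miR-223, a difference of -0.40 (95% CI -0.72 to -0.08). Msmo1, the methylsterol monooxygenase of the same pathway, had 6.04, 6.34, 5.84 and 5.90 with scramble and 5.69, 5.99, 5.48 and 5.47 with pre-miR-223, a difference of -0.37 (95% CI -0.68 to -0.06). In both genes pre-miR-223 replicate 2 overlapped scramble. Another target of the same pathway, the HMG-CoA synthase gene Hmgcs1, had 7.15 ± 0.10 with scramble and 7.22 ± 0.16 with pre-miR-223, a difference of 0.06 (95% CI -0.17 to 0.29). Scarb1, the HDL receptor SR-BI, differed by -0.28 (95% CI -0.60 to 0.04). The extracellular matrix gene Ecm1 and the cathepsin gene Ctsz were the other lower targets with an unadjusted p under 0.05, at -0.31 and -0.32.

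Mef2c was the only target with higher signal at that level. Its brightest row (17294682) had 6.65, 5.95, 8.28 and 7.84 with scramble and 8.69, 7.47, 8.33 and 8.58 with pre-miR-223, a difference of 1.09 (95% CI 0.15 to 2.02), with the low arrays described for the 2-fold genes. The other row (17288917), at a mean of 6.83, differed by -0.10. Nlrp3 had 5.83, 5.79, 5.51 and 5.62 with scramble and 5.69, 5.81, 5.33 and 5.44 with pre-miR-223, a difference of -0.12 (95% CI -0.39 to 0.15). Stmn1, a microtubule destabiliser, differed by -0.13 (95% CI -0.33 to 0.07), and after centring by -0.02. The cell-cycle factor E2f1 differed by -0.08 (95% CI -0.28 to 0.13) and the haematopoietic cofactor Lmo2 by -0.02 (95% CI -0.27 to 0.24), which became 0.03 and 0.09 after centring. Nfia, at a mean of 2.79, lay below log2 4 and was not tested.

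**Figure D3:**
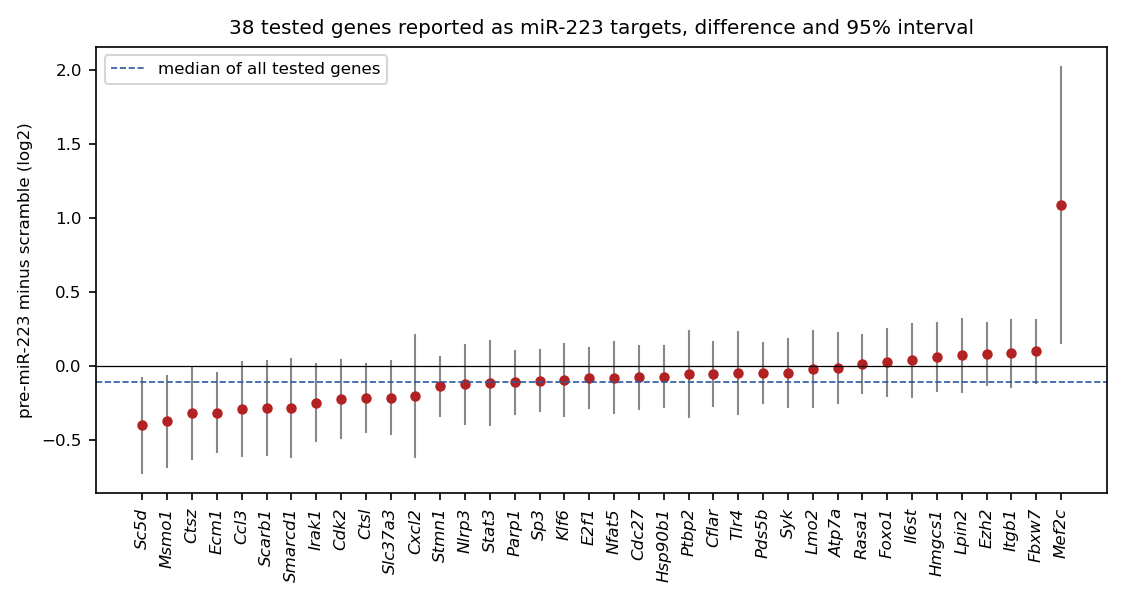
Difference, pre-miR-223 minus scramble on the log2 scale, with its 95% confidence interval from limma for the 38 tested genes reported as miR-223 targets, ordered by the difference. The dashed line is the median of all tested genes, -0.11, and most points lie near it; Mef2c stands apart at 1.09 with the widest interval.

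Cytosolic ribosomal proteins, the protein part of the ribosome, had the highest share of lower genes. Of 80 listed, 44 were tested, 16 lay at or below log2 4 and 20 had no row with 1 symbol. At an unadjusted p under 0.05, 19 of 44 (43.2%) were lower, against 11.9% of all tested genes and 20.04% of those above log2 8. At that level 1 of the 44, Rps18, was higher. The median difference was -0.25, and 42 of 44 were below 0, against 78.9% of all tested genes. In 2 (4.55%), Fau and Rpl13, the groups did not overlap, against 2.56% of all tested genes. Rpl9 had 6.68, 7.28, 6.77 and 6.58 with scramble and 6.20, 6.73, 6.17 and 5.74 with pre-miR-223, a difference of -0.62 (95% CI -1.05 to -0.19). Fau, whose product holds a ribosomal protein, had 9.14, 9.25, 9.05 and 9.03 with scramble and 8.79, 9.03, 8.72 and 8.32 with pre-miR-223, a difference of -0.40 (95% CI -0.70 to -0.11). Rpl34 had the lowest difference of the list, -0.80 (95% CI -1.44 to -0.15), with pre-miR-223 replicate 2 at 5.78, above every scramble array.

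Centring left 11 of the 44 ribosomal protein genes lower at an unadjusted p under 0.05 (25.0%, against 5.54% of all tested genes), with a median of -0.15. Relative to the median of all tested genes in the same array, the list lay at 0.08, 0.08, 0.07 and 0.06 in scramble replicates 1 to 4 and at -0.08, 0.04, -0.07 and -0.16 with pre-miR-223. All 4 pre-miR-223 arrays thus lay below all 4 scramble arrays on this measure, replicate 2 by the smallest margin. The count of 19 ranged from 5 without pre-miR-223 replicate 4, where 4.85% of all tested genes were lower at that level, to 31 without replicate 2 of that group, where 28.2% were. It was 6 to 8 without scramble replicate 1 or 2 or pre-miR-223 replicate 1 or 3. Without pre-miR-223 replicate 2, 9 of 44 (20.5%) were called lower, against 6.61% of all tested genes, and 1 higher. These proteins have many pseudogene copies, so single rows are uncertain.

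The respiratory chain, the mitochondrial complexes that pass electrons to oxygen and make ATP, had 45 of 53 listed genes tested. At an unadjusted p under 0.05, 18 of 45 (40.0%) were lower, against 11.9% of all tested genes and 20.04% of those above log2 8. Higher signal at that level was seen for 0 of the 45, and 41 were below 0, with a median of -0.20. The groups overlapped in all 45. Ndufb9, of complex I, had 9.60, 9.59, 9.25 and 9.19 with scramble and 8.55, 9.37, 8.67 and 8.51 with pre-miR-223, a difference of -0.63 (95% CI -1.02 to -0.25). Cox6a1, of cytochrome c oxidase, had 10.59, 10.43, 10.22 and 10.23 with scramble and 9.77, 10.29, 9.89 and 9.46 with pre-miR-223, a difference of -0.52 (95% CI -0.86 to -0.17). In both genes only pre-miR-223 replicate 2 reached into the scramble range. Ndufs8, of complex I, differed by -0.66 (95% CI -1.17 to -0.15). After centring 5 of 45 (11.1%) were lower at that level, against 5.54% of all tested genes, and the median was -0.10. The 18 became 2 when pre-miR-223 replicate 4 was left out, a share of 4.44% beside 4.85% of all tested genes. They became 6 to 11 without any 1 of the scramble arrays or pre-miR-223 replicate 1 or 3. They became 25 without replicate 2 of that group, where 28.2% of all tested genes were lower, and in that fit 13 of 45 (28.9%) were called lower, against 6.61%.

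**Figure D4:**
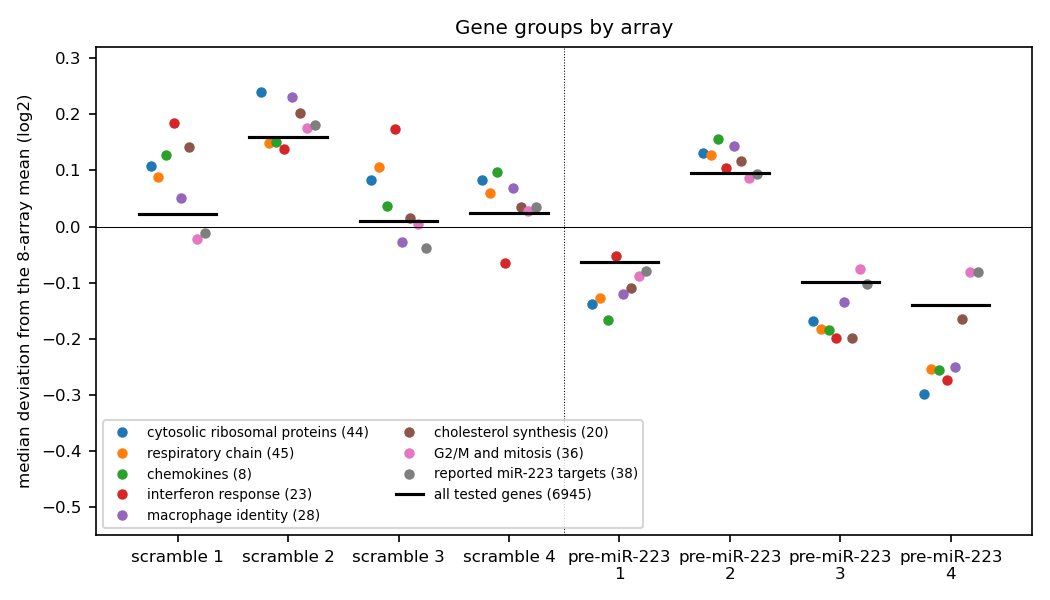
Median deviation from each gene's mean over the 8 arrays (log2, vertical axis) for 8 gene groups (points; members tested in brackets) and for all tested genes (black bars), by array. The black bars are highest in scramble replicate 2 and lowest in pre-miR-223 replicate 4. The groups follow them only in part: the interferon response lies at 0.19, 0.14, 0.17 and -0.06 in scramble replicates 1 to 4, against bars at 0.02, 0.16, 0.01 and 0.02. The ribosomal points lie below the bars in pre-miR-223 replicates 1, 3 and 4.

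The proteasome, which degrades ubiquitinated proteins, stayed close to the background. Of 30 tested genes, 3 (10.0%, against 11.9% of all tested genes) were lower at an unadjusted p under 0.05, and the median was -0.11. After centring 1 was lower (3.33%, against 5.54% of all tested genes), and the median was 0.00. Psme1, of the interferon-induced proteasome activator, was one of them, at -0.29 (95% CI -0.54 to -0.05). Lysosomal genes had 2 of 30 lower (6.67%, against 11.9% of all tested genes) and a median of -0.15, or 0 and -0.04 after centring. The unfolded protein and integrated stress response had 1 of 33 lower (3.03%, against 11.9% of all tested genes). It was Pdia6, a disulfide isomerase of the endoplasmic reticulum, at -0.26. The median of the list was -0.07, and after centring 0 were lower and the median was 0.04. Heat shock genes, with 9 tested, and the microRNA machinery, with 11, had 0 lower, against 11.9% of all tested genes, and medians of -0.05 and -0.07. Drosha, which cuts primary miRNA transcripts, had the smallest p of the machinery, at -0.15 (95% CI -0.37 to 0.08).

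Cell-cycle genes were counted by phase, and the phases were not compared by a test. The list for G1/S and replication had 39 tested genes, of which 6 (15.4%) were lower at an unadjusted p under 0.05, against 11.9% of all tested genes. The median of the list was -0.15. The thymidine kinase gene Tk1 had 7.28, 7.26, 6.98 and 6.94 with scramble and 6.60, 6.90, 6.65 and 6.69 with pre-miR-223. Its groups did not overlap, and the difference was -0.40 (95% CI -0.65 to -0.16). Gins2 of the replicative helicase, the dUTPase gene Dut, Rfc2 of the clamp loader, Mcm5 of the helicase and the G1 kinase gene Cdk4 were the others, at -0.36 to -0.30. Centring again gave 6 lower (15.4%, against 5.54% of all tested genes), with 1 higher and a median of -0.04. Single arrays left out gave 4 to 10, or 18 without pre-miR-223 replicate 2, where 28.2% of all tested genes were lower. In that last fit 5 of 39 (12.8%) were called lower, against 6.61%. Of 36 G2/M and mitosis genes, 1 (2.78%) was lower at an unadjusted p under 0.05, against 11.9% of all tested genes. It was the securin gene Pttg1, at -0.25 (95% CI -0.48 to -0.02). The median of the list was -0.10, and after centring 0 were lower and the median was 0.01. Nek2, a centrosome kinase gene, was the only one of these with non-overlapping groups, at 6.20 ± 0.07 with scramble and 6.32 ± 0.02 with pre-miR-223. Among 14 core and linker histone genes 2 (14.3%, against 11.9% of all tested genes) were lower, H4c14 at -0.41 and H2ax at -0.34. Of the 53 listed, 29 had no row with 1 symbol. H4c14 had a mean of 3.81 with pre-miR-223, so it was tested, and counted here, only because of its scramble arrays. Centring left 1 of the 14 lower (7.14%, against 5.54% of all tested genes).

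The p53 target list had 3 of 13 tested genes lower at that level (23.1%), before and after centring, against 11.9% and 5.54% of all tested genes. Without pre-miR-223 replicate 4, 1 of the 13 was lower, and without scramble replicate 1 or 2 or pre-miR-223 replicate 1, 2 were. At most 3 were lower without pre-miR-223 replicate 2, where 28.2% of all tested genes were. In that fit 1 of 13 (7.69%) was called lower, against 6.61%. Plk3, a stress-responsive kinase gene, differed by -0.38 (95% CI -0.66 to -0.11), Gadd45b by -0.31 and the cell-cycle inhibitor gene Cdkn1a by -0.37. Plk3 had means of 4.21 with scramble and 3.82 with pre-miR-223, so it was tested, and counted here, only because of its scramble arrays. The groups did not overlap for Plk3 and Gadd45b, against 2.56% of all tested genes.

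Macrophage identity genes had 28 members tested, of which 7 (25.0%) were lower at an unadjusted p under 0.05, against 11.9% of all tested genes, with a median of -0.18. Fcgr1, the high-affinity IgG receptor gene, had 6.13, 6.17, 6.14 and 5.95 with scramble and 5.54, 6.16, 5.59 and 5.62 with pre-miR-223, a difference of -0.37 (95% CI -0.67 to -0.08). Replicate 2 of pre-miR-223 lay inside the scramble range, and the 3 others lay clearly below it. Fcer1g, the signalling chain shared by Fc receptors, differed by -0.59 (95% CI -1.09 to -0.10), and its partner adaptor gene Tyrobp by -0.34. The macrophage transcription factor gene Spi1 differed by -0.31, and Runx1 by -0.20 with no overlap. Centring left 3 of 28 lower (10.7%, against 5.54% of all tested genes), with a median of -0.07. The 7 became 1 without scramble replicate 2 or pre-miR-223 replicate 1 or 4, a share of 3.57%, below the 4.85% to 6.94% of all tested genes in those fits. They became 2 without scramble replicate 1, and 4 when scramble replicate 4 or pre-miR-223 replicate 3 was omitted. Omitting pre-miR-223 replicate 2 gave 13, and in that fit 6 of 28 (21.4%) were called lower, against 6.61%. Trem2, a phagocytic lipid receptor that signals through Tyrobp, differed by -0.41 (95% CI -0.69 to -0.13), with 8.36 in pre-miR-223 replicate 2 against 8.38 ± 0.08 over the scramble arrays and 7.98 ± 0.27 over the pre-miR-223 arrays (SD, n = 4). It headed both the phagocytic and scavenger receptors and the osteoclast genes. The first list had 2 of 12 lower (16.7%) and the second 2 of 13 (15.4%), against 11.9% of all tested genes. Their medians were -0.20 and -0.21. After centring each of these lists had 1 lower gene (8.33% and 7.69%, against 5.54% of all tested genes).

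Antigen presentation genes were below 0 in 11 of 11 cases, with a median of -0.21, and 3 (27.3%) were lower at an unadjusted p under 0.05, against 78.9% and 11.9% of all tested genes. These were the class II genes H2-Ab1, at -0.33 (95% CI -0.58 to -0.07), and H2-DMa, at -0.33, and the class I light chain gene B2m, at -0.25. B2m had 11.07, 11.08, 11.02 and 11.08 with scramble and 10.84, 11.05, 10.79 and 10.55 with pre-miR-223. Centring left 1 of 11 lower and a median of -0.10. The 3 became 0 without pre-miR-223 replicate 3, and 1 with scramble replicate 2 or pre-miR-223 replicate 1 or 4 omitted. They became 6 without pre-miR-223 replicate 2, where 28.2% of all tested genes were lower. In that last fit 1 of 11 (9.09%) was called lower, against 6.61%. The interferon response had 8 of 23 tested genes lower (34.8%), against 11.9% of all tested genes, and a median of -0.20. Cmpk2, a mitochondrial nucleotide kinase gene induced by interferon, had 4.36 ± 0.28 with scramble and 3.87 ± 0.19 with pre-miR-223 (SD, n = 4), a difference of -0.49 (95% CI -0.80 to -0.18). With a pre-miR-223 mean below log2 4, Cmpk2 was tested, and counted here, only because of its scramble arrays. Irf9, of the interferon-activated ISGF3 factor, differed by -0.39 (95% CI -0.64 to -0.14) without overlap. Irf7, a regulator of interferon genes, differed by -0.52 (95% CI -0.93 to -0.12), with 4.66 in pre-miR-223 replicate 4 and 5.42 to 5.60 in the 3 others. After centring 5 of 23 interferon genes (21.7%) were lower, against 5.54% of all tested genes, with a median of -0.10. Above log2 6 the median of the list was -0.03. Single arrays left out gave 5 to 8 lower, or 12 without pre-miR-223 replicate 2, and in that last fit 2 of 23 (8.70%) were called, near the 6.61% of all tested genes.

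NF-kB inflammation genes were below 0 in 20 of 21 cases, with a median of -0.15, but 2 (9.52%) were lower at an unadjusted p under 0.05, against 78.9% and 11.9% of all tested genes. These were Nfkbie, which encodes the inhibitor IkB epsilon, at -0.32 (95% CI -0.54 to -0.10) without overlap, and the subunit gene Nfkb2, at -0.26. After centring 13 of 21 were below 0 and the median was -0.04. Of 20 chemokine genes 8 were tested, with a median of -0.24. Cxcl14 had 5.92, 5.67, 5.70 and 5.80 with scramble and 5.31, 5.57, 5.48 and 5.50 with pre-miR-223, without overlap. Ccl2, which attracts monocytes, had 5.06, 5.71, 5.73 and 5.81 with scramble and 4.89, 5.50, 4.92 and 5.33 with pre-miR-223, a difference of -0.42 (95% CI -0.81 to -0.02). After centring no chemokine gene or receptor gene had an unadjusted p under 0.05 for lower signal, and the chemokine median was -0.13. Of 3 tested genes on the chemokine receptor list, the fractalkine receptor gene Cx3cr1 differed by -0.24 (95% CI -0.44 to -0.03) without overlap. Cxcr4 differed by -0.04, and C5ar1, the receptor gene for complement fragment C5a, by 0.02. Among 5 tested genes of classical and alternative activation, Socs3 was higher and the costimulatory ligand gene Cd80 lower, at -0.34. Of 19 immediate early genes 1 (5.26%, against 11.9% of all tested genes), Fosl2, was lower, at -0.33, and 0 were after centring.

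Cholesterol synthesis genes, many of which the SREBP2 factor switches on when sterols are low, had 20 members tested. At an unadjusted p under 0.05, 5 (25.0%) were lower, against 11.9% of all tested genes, and 1, Insig2, was higher, with a median of -0.18. Besides Sc5d and Msmo1 these were Srebf2, which encodes SREBP2, at -0.30 (95% CI -0.54 to -0.05), its escort gene Scap at -0.37 and the farnesyl diphosphate synthase gene Fdps at -0.24. Centring gave 3 lower, 1 higher and a median of -0.07. The 5 lower genes became 0 without scramble replicate 2 or pre-miR-223 replicate 4. Omitting pre-miR-223 replicate 3 gave 1 and omitting scramble replicate 1 gave 2. There were 9 with pre-miR-223 replicate 2 omitted, where 28.2% of all tested genes were lower. In that fit 3 of 20 (15%) were called lower, against 6.61% of all tested genes. Insig2 was called higher there, but with a scramble mean of 3.84 it was tested only because of its pre-miR-223 arrays. LXR targets and cholesterol efflux genes were below 0 in 11 of 11 cases, against 78.9% of all tested genes, with a median of -0.17. At an unadjusted p under 0.05, 2 (18.2%, against 11.9%) were lower, Mylip at -0.27 and Npc2 at -0.22. After centring 8 of 11 were below 0 and 0 were lower at that level. The main cholesterol exporter gene Abca1 differed by less than 0.01. Fatty acid synthesis had 1 of 17 lower (5.88%, against 11.9% of all tested genes), Elovl1, an elongase gene, at -0.24, and 0 after centring.

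Oxidative response genes driven by NRF2 were below 0 in 21 of 21 cases, with a median of -0.19, and 4 (19.0%) were lower at an unadjusted p under 0.05, against 78.9% and 11.9% of all tested genes. They were Gpx1, the glutathione transferase gene Gstm1 at -0.28, the mitochondrial superoxide dismutase gene Sod2 at -0.25 and the catalase gene Cat at -0.33. After centring 16 of 21 were below 0 and 1 was lower at that level. The 4 became 1 without scramble replicate 2 or pre-miR-223 replicate 3. Omitting scramble replicate 1 or pre-miR-223 replicate 4 gave 2, and omitting pre-miR-223 replicate 2 gave 9, where 28.2% of all tested genes were lower. In that last fit 1 of 21 (4.76%) was called lower, against 6.61%. Among glycolysis and hypoxia genes 3 of 20 (15%) were lower, against 11.9% of all tested genes. They were the glucose transporter gene Slc2a1 at -0.32 (95% CI -0.61 to -0.03) and the enzyme genes Gapdh and Tpi1 at -0.26 and -0.25. The count was 0 after centring, and 0 with scramble replicate 2 or pre-miR-223 replicate 1, 3 or 4 omitted. PI3K, FOXO and IGF signalling had 4 of 20 lower, where 11.9% of all tested genes were, with the kinase genes Pik3cd at -0.25 and Akt1 at -0.29, the growth factor gene Igf1 at -0.38 and the translation repressor gene Eif4ebp1 at -0.48. After centring 1 of 20 was lower, against 5.54% of all tested genes, and the median turned from -0.08 to 0.03. The 4 became 0 without pre-miR-223 replicate 3. Omitting scramble replicate 2 or pre-miR-223 replicate 4 gave 1, and omitting replicate 1 of either group gave 2. There were 6 without pre-miR-223 replicate 2, and in that fit 1 of 20 (5%) was called lower, against 6.61% of all tested genes.

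**Figure D5:**
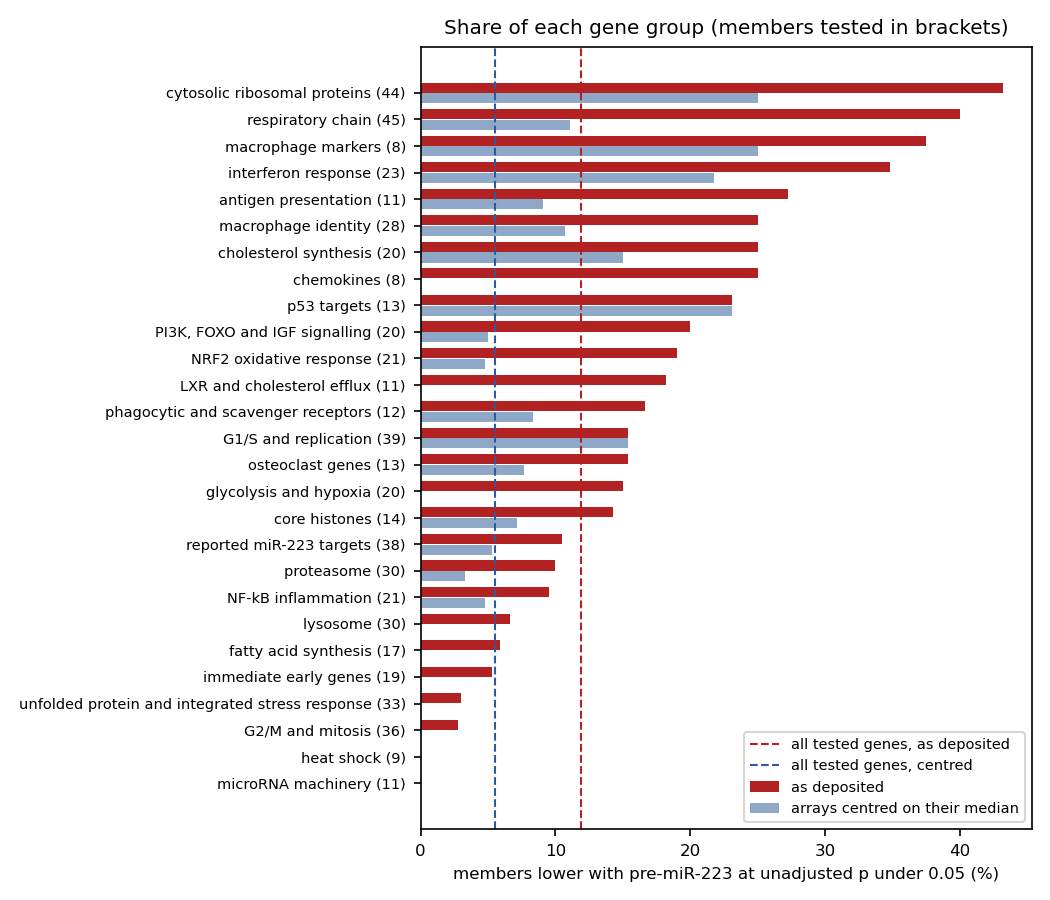
Share of the tested members of each gene group (members in brackets) that were lower with pre-miR-223 at an unadjusted p under 0.05, as deposited (red) and after centring each array on its median (blue), for groups with at least 8 tested members. Dashed lines give the share over all tested genes, 11.9% as deposited and 5.54% after centring; the ribosomal and respiratory groups reach 43.2% and 40.0% as deposited and 25.0% and 11.1% after centring.

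The genes called without pre-miR-223 replicate 2 were led by Wfdc17, a small secreted protein gene of macrophages. It had 5.13, 5.49, 5.19 and 5.26 with scramble and 3.97, 5.48, 4.35 and 4.28 with pre-miR-223. Replicate 2 of pre-miR-223 lay within the scramble range, and the 3 others lay well below. The difference was -1.07 (95% CI -1.34 to -0.80) in the fit without pre-miR-223 replicate 2 (adjusted p = 0.0147 by limma) and -0.75 with all 8 arrays. Nop10, of the particles that modify ribosomal RNA, differed by -0.80 and -0.61 in these fits. With pre-miR-223 replicate 2 left out and the rest centred, 0 genes were called. Wfdc17 and Nop10 were chosen for mention after their values were seen.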

How the data were processed

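The authors deposited 1 table of log2 values for 41345 transcript clusters and 12 arrays. Affymetrix Expression Console, RMA and Partek are listed in the submitters' processing notes. Their versions and roles and the genome build are not given in the sources used here. RMA as usually run equalises the arrays' distributions, so a difference in total RNA cannot be seen. The log base is not stated and was taken as 2, as the deposited values lie between 0.53 and 12.4. A platform table annotated 25335 clusters, of which 23521 had 1 symbol; these covered 22180 symbols. Each symbol was represented by its brightest cluster over the 8 arrays, and means above log2 4 were kept. Just inside that level were Rmnd5b and Chst10, differing by -0.18 and -0.23, and just outside Kif3c and Mthfd2l, at -0.04 and -0.30. Of 6945 genes, 6923 matched RefSeq (GRCm38.p6).

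The test was that of limma 3.58.1 run under R 4.3.3 (lmFit, eBayes without trend or robust options, no covariates, 6 residual degrees of freedom), 2-sided, with Benjamini-Hochberg adjustment over all tested genes. The scripts were tested on simulated data. The members, the 35 gene lists and the alternatives were chosen with earlier results of these data known, so lists were counted and not tested; the result of 1 further list is left out. Genes named by rule were the 12 with the smallest p in each direction (leaving out predicted, olfactory, vomeronasal and small RNA genes), the member of each list with the smallest p (2 for targets), and 9 fixed genes, of which 5 were tested; this gave 54 genes, and others named were chosen after their values were seen. A grouping of genes by miR-223 seed sites was planned and was not run, as no transcript sequences were used here. Arrays give no read depth, and their number limits the precision. Alternatives covered the level filter, row choice, scaling, variance model, array weights, a replicate block and leaving out each array.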

Additional observations from a re-analysis of the deposited data

Results flagged for a closer look

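Of 168 groups of 4 arrays looked at, 10 had 1 array far from the other 3, by Dixon's gap-to-range ratio at its 95% critical value; chance gives about 1 in 20. The array was pre-miR-223 replicate 2 in 7 cases, always high. Fcgr1 had 6.16 there, with the next array at 5.62, and Slc2a1 had 7.45, with the next at 7.05. The median deviation from the 8-array mean was 0.09 there for the reported miR-223 targets, with the next array at -0.08, and 0.09 for G2/M and mitosis, with the next at -0.08. It was 0.09 for LXR and cholesterol efflux and 0.13 for lysosome, with the next arrays at -0.10 in both, and 0.10 for the proteasome, with the next at -0.11. Scramble replicate 2 was high for the median over all tested genes, 0.16 against 0.02 in the next array, and for cytosolic ribosomal proteins, 0.24 against 0.11. Plk3 was high in scramble replicate 1, 4.53 against 4.14. These groups share arrays and genes.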

How the results depend on the processing

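None of the 6945 genes was called as deposited (888 at an unadjusted p under 0.05). Calls appeared with array weights, 45, which gave pre-miR-223 replicate 2 the lowest weight, and without both replicate 2 arrays, 36. Leaving out 1 array gave 0 to 490 calls, with 337 to 1961 lower and 37 to 86 higher genes at an unadjusted p under 0.05. The highest counts of calls and of lower genes came without pre-miR-223 replicate 2, and the fewest lower genes without pre-miR-223 replicate 4. No other alternative gave a call.

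The 825 lower genes became 357 with the spread from all 12 arrays, 421 above log2 6, 1299 with no level filter, 385 after centring, 392 with cyclic loess, 478 with an ordinary linear model, 1638 with array weights and 1501 without both replicate 2 arrays. The 63 higher genes became 24 with the spread from 12 arrays, 255 above log2 2, 98 above log2 3, 27 above log2 6, 439 with no filter, 158 over all rows, 308 after centring, 159 with quantile normalisation, 298 with cyclic loess, 118 with array weights, and 586 centred without pre-miR-223 replicate 2. Repeating quantile normalisation left 586 lower, 78.7% of the genes at that level, against 92.9% as deposited, 55.6% after centring and 56.8% with cyclic loess. The median difference became 0.00 after centring, -0.01 with cyclic loess and 0.01 centred without pre-miR-223 replicate 2.

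Whether the replicate numbers pair the samples is not given in the labels and was not settled by the values. Same-numbered arrays correlated at -0.14, 0.41, 0.10 and 0.22 in their deviations from the group means. Of the 8 arrays, 4 matched best with their own number. The replicate block gave 0 calls (lowest adjusted p = 0.0842 in limma). It gave 1497 lower and 86 higher genes at an unadjusted p under 0.05, against 825 and 63 without the block.

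Medians of gene groups after centring were 0.03 for targets, 0.04 for the microRNA machinery, 0.01 for G2/M, 0.03 for core histones, 0.01 for p53 targets, 0.04 for the unfolded protein response, 0.06 for heat shock, -0.01 for glycolysis and 0.00 for the proteasome. With cyclic loess they were 0.02 for targets, 0.02 for the microRNA machinery, 0.03 for fatty acid synthesis, -0.04 for lysosome, 0.02 for G2/M, 0.03 for core histones, 0.03 for the unfolded protein response, 0.05 for heat shock and 0.00 for the proteasome. Heat shock had 0.02 with quantile normalisation. Centred without pre-miR-223 replicate 2, they were 0.05 for targets, 0.05 for the microRNA machinery, 0.15 for chemokine receptors, -0.04 for G1/S, 0.01 for G2/M, 0.06 for core histones, 0.03 for p53 targets, 0.05 for the unfolded protein response, 0.06 for heat shock, -0.01 for glycolysis and 0.00 for the proteasome. Chemokine receptors had -0.24 above log2 5 and above log2 6, where the microRNA machinery had 0.08, the interferon response -0.03 and PI3K signalling -0.25.

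Of 1299 values of the 54 named genes, 1235 kept their sign and their side of the threshold, 51 newly passed the test, and 13 reversed. Lmo2 had 0.09 after centring, 0.05 with quantile normalisation, 0.08 with cyclic loess, 0.13 with array weights, 0.13 without both replicate 2 arrays, 0.18 centred without pre-miR-223 replicate 2, and -0.07 to 0.09 over single arrays left out. E2f1 had 0.03 after centring, 0.02 with cyclic loess and 0.07 centred without pre-miR-223 replicate 2, where Stmn1 had 0.05. The cause of these shifts was not tested. The alternatives for seed-site groups were not run.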

Other observations

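By gene type, 6676 protein-coding genes had a median difference of -0.11, and 795 of them were lower and 51 higher with pre-miR-223 at an unadjusted p under 0.05. Of all 6945 tested genes, 825 (11.9%) were lower and 63 (0.907%) higher at that level, with a median of -0.11. Over 68 tested small nucleolar RNA genes, guides for ribosomal RNA modification, the median was 0.02, with 1 lower and 0 higher. The 42 tested miRNA genes, whose rows read precursor regions, had a median of -0.02, with 2 lower and 4 higher. Mir5112 was the highest of these, with 5.20, 4.57, 5.22 and 5.55 with scramble and 6.46, 5.30, 7.37 and 7.87 with pre-miR-223, a difference of 1.62 (95% CI 0.69 to 2.55). The 32 genes listed as pseudogenes had a median of -0.31, with 9 lower and 0 higher. Gene types were not compared by a test.

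Some genes of interest lay below the level tested. Cd40, a costimulatory receptor, had means of 2.96 with scramble and 2.43 with pre-miR-223, and the interferon-induced GTPase gene Mx2 had 2.34 and 2.71.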
